A study of Mus musculus with 2 samples.

Results

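The 50 genes described here encode proteoglycans, elastic fibre proteins and matricellular proteins of the extracellular matrix. They were listed by name, with 16 genes of the proteoglycan class, 16 of the elastic fibre class and 18 of the matricellular class, out of 22180 genes that have a probe set of their own on the array. The classes are broad, since the proteoglycan class includes the decorin-binding Dpt and the matricellular class the adhesive glycoprotein gene Fn1. A probe set is the group of probes that is summarised into a single value for a transcript. A member is represented where the platform annotation gives a probe set that symbol and no other, which held for 47 of the 50. Fbn1, Efemp2 and Spp1 had no such probe set and have no value here.

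The arrays compare RNA of a skin model built from cells of Itih5 knockout mice with RNA of a model built from wildtype cells, and the titles of both samples give day 7. Itih5 encodes an inter-alpha-trypsin inhibitor heavy chain, which the series title places with the hyaluronan of the skin. The cells were keratinocytes and fibroblasts from adult mice that had received no treatment, and both cell types had been passaged serially in culture. There was 1 array for each genotype, so every difference below is a difference between 2 arrays, with no replicate error and no test. The strain, the way the knockout was made and the number of mice behind each model are not stated by the labels.

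Proteoglycans carry long sulfated sugar chains on a protein core. The small leucine-rich ones bind collagen fibrils in the dermis, and the syndecans and glypicans hold heparan sulfate at the cell surface. Elastic fibres consist of elastin deposited on microfibrils of fibrillins and their partners, with fibulins assisting assembly and latent TGF-beta binding proteins tethering the growth factor. Matricellular proteins are secreted into the matrix, where they act more on cell adhesion and signalling than on structure, and several of them are abundant in wounds.

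The deposited table had lost the decimal point from 67457 of its 67586 values, and each point was put back before any comparison. A place was possible only if it gave a number that a single-precision computation of a power of 2 can produce. Where several places were possible, their probabilities were estimated from all probe sets. A probe set was used if its likeliest pair of places had a probability of at least 0.95. This restored 40 of the 47 members. The other 7 (Aspn, Sdc2, Gpc3, Emilin1, Thbs1, Thbs3 and Sparc) are undecided and are described by their possible readings. A gene is called expressed where the higher of its intensities reached 46.4, the median of all restored values, and differences are log2 intensities of the knockout minus the wildtype model. Lum, Fmod, Ogn, Fbn2, Mfap4 and Comp were below that threshold on both arrays, with intensities from 24.6 to 41.5. This left 34 expressed members.

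The 250 bases before the start of 4 members are shown because these are the genes with the widest differences for which the RefSeq promoter table (build GRCm38.p6) has an entry: Fstl1, Tnc and Thbs2, which read higher in the knockout model, and Efemp1, which read lower. Letters in capitals match any of 5 motifs searched on both strands: the TATA box TATAAA, the AP-1 motif TGANTCA, the TEAD motif GGAATG, the SMAD motif CAGACA and the GC box GGGCGG. The AP-1 letters read alike on both strands, and matches of different motifs were allowed to overlap.
Fstl1, chr16:37776805-37777054, plus strand: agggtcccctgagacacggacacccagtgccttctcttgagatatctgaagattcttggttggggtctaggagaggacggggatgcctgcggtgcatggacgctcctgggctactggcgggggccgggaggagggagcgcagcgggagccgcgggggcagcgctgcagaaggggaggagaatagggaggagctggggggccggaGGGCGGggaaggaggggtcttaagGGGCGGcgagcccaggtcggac
Tnc, chr4:64047016-64047265, minus strand: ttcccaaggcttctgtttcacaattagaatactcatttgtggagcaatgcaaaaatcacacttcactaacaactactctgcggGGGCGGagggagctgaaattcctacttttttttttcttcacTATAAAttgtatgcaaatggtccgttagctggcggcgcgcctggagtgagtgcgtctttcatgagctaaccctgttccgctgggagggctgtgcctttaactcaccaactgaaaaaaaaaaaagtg
Thbs2, chr17:14694263-14694512, minus strand: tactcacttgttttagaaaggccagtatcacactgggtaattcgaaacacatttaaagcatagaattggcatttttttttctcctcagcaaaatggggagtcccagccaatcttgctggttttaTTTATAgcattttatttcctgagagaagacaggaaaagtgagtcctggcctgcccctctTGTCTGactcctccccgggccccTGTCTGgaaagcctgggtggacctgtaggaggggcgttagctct
Efemp1, chr11:28852955-28853204, plus strand: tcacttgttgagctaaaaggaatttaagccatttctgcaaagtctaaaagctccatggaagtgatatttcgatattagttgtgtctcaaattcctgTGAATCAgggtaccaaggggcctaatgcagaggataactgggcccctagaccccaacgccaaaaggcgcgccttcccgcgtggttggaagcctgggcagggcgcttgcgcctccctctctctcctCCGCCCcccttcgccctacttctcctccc

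The table held 45 promoters for 34 of the 50 members. The GC box was present in 26 of these 45 (57.8%), against 32.7% of all 32851 promoters over the same 250 bases. The SMAD motif was present in 12 (26.7%) against 17.1%, and the TATA box in 9 (20.0%) against 12.4%. The AP-1 motif, in 3 (6.67%) against 6.75%, and the TEAD motif, in 4 (8.89%) against 12.6%, were no more frequent than over all promoters. Of the sequences shown, Fstl1 has a pair of GC boxes and Thbs2 a pair of SMAD motifs, while Efemp1 has an AP-1 motif and a GC box. These matches describe the letters in this window only, and several promoters of a gene overlap.

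As a whole, the members read higher in the knockout model. Of the 34 expressed members, 7 (20.6%) were higher by 2-fold or more in the knockout model, where 3.77% of all 12682 expressed genes were. They are Fstl1, Fn1, Tnc, Gpc6, Ccn4, Thbs2 and Mfap5. The set of all expressed genes was not matched to the members by intensity. A single member, Efemp1, was lower by 2-fold or more (2.94% of the members), which is close to the 3.28% of all expressed genes. In all, 26 of the 34 members (76.5%) lay above 0, against 54.2% of expressed genes. The median difference was 0.40 (1.32-fold) against 0.04 over all expressed genes. It was 0.70 over the members with 1 possible place and 0.66 with the undecided members at their likeliest places. Of the 7 higher members, 6 had 1 possible place of the point on both arrays. By the probabilities estimated from all probe sets, 0.253 of the 34 are expected to be misplaced. No separate estimate was made for the members.

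**Figure D1:**
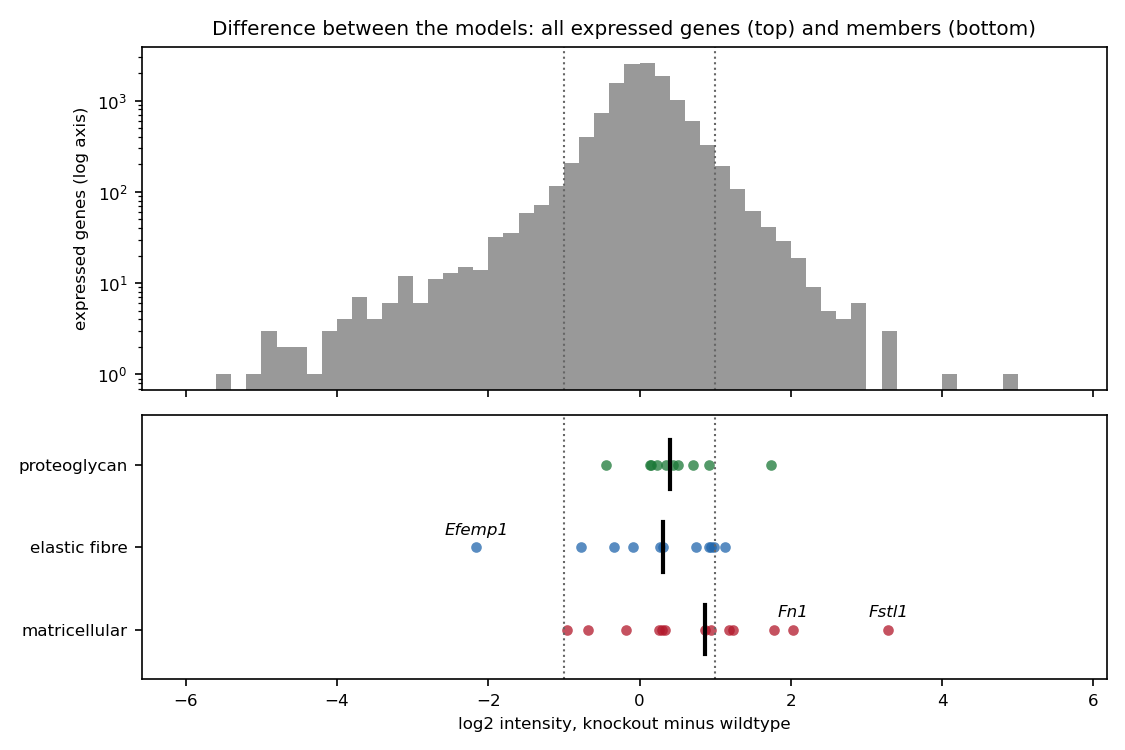
The upper panel counts all 12682 expressed genes (log axis) by their log2 difference, knockout minus wildtype, and the lower panel shows each expressed member as a point, with a bar at the median of each class and dotted lines at 2-fold. The matricellular members reach from -0.96 to 3.29 around a median of 0.87, and Efemp1 is the member beyond 2-fold on the lower side, at -2.16.

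The models differed in their cell type markers as well, and in such bulk samples fewer cells of a type and less RNA per cell cannot be told apart. Of 10 fibroblast markers that are no members, 8 were expressed and all 8 read higher in the knockout model, where 54.2% of all expressed genes did. Fap was below the threshold on both arrays, with 29.0 against 36.0, and Pdgfrb was undecided. The 8 expressed markers had a median of 0.87, in a range from 0.36 (S100a4) to 1.63 (Twist2). The summed intensity of the restored markers of this list was 12805 on the knockout array and 6731 on the wildtype array. The 3 basal keratinocyte markers expressed had a median of -1.01, with Krt14 at 4076 against 9538. Trp63 and Itgb4 of this list were undecided, and Krt5 had no probe set of its own. The 7 differentiated keratinocyte markers had a median of -1.35. The widest of these were Dsg1a, at 78.5 against 802, and Lor, at 57.3 against 522. Ivl was level, with 143 against 141, and the knockout values of Krt1 (39.8) and Flg (38.8) lay under the threshold. The summed intensities were 5270.4 against 11766 for the basal list and 3434 against 9895 for the differentiated list. The part of this shift in the members' differences was not tested. Side by side, 13 members lay within the range of the fibroblast markers, 17 below its lower end and 4 above its upper end. The 4 are Fstl1, Fn1, Tnc and Gpc6.

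Of the markers of other cell types, some were not expressed, and the expressed ones went both ways. The endothelial genes Pecam1, Cdh5 and Tek, the adipocyte genes Adipoq and Cidec, the macrophage genes Adgre1 and Csf1r and the melanocyte genes Tyr and Dct were below the threshold on both arrays. Undecided markers left out, the summed intensities of the whole lists in the knockout and the wildtype model were 247 and 207 for endothelial genes (2 of 5 expressed), 236 and 231 for smooth muscle and pericyte genes (2 of 6), 392 and 415 for chondrocyte genes (2 of 4) and 89.2 and 106 for Schwann cell genes (1 of 4). The sums were 5622 and 1332 for adipocyte genes (3 of 5, with Fabp4 at 4974 against 816), 1348 and 511 for melanocyte genes (4 of 6) and 629 and 321 for macrophage genes (1 of 5, Cd14). Among the expressed melanocyte markers, Mlana had 705 against 109 (6.45-fold higher) and Mitf 464 against 215 (2.16-fold higher), while Pmel had 69.2 against 56.5 and Sox10 51.3 against 66.4. The endothelial gene Kdr had 87.4 on the knockout array and 36.1, below the threshold, on the wildtype array. The other expressed endothelial gene, Vwf, had 50.4 against 53.0. The part of these cell types in the members' differences was not tested. Itih5 itself had intensities of 30.4 and 29.8, both below the threshold, and the labels do not say which part of the gene was removed, so its probe set checks neither label.

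The matricellular class held the widest difference, that of Fstl1. Of its 13 expressed members, 5 were higher by 2-fold or more, 0 were lower by as much, and the median was 0.87. Of all expressed genes, 3.77% were higher and 3.28% lower by 2-fold or more, so 0 lower among 13 is near that share. Fstl1, a secreted follistatin-like glycoprotein of the SPARC family, had an intensity of 2331 on the knockout array and 238 on the wildtype array. This 9.78-fold difference was the largest of any restored member, and 99.96% of expressed genes had a lower difference. Because it is near a shift of the point by 1 digit, the places were examined singly. The knockout value could not be 233.1 and the wildtype value could not be 2383.8, since neither is a number that the stated computation gives, and 1 place was possible on each array.

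Fn1 encodes fibronectin, the adhesive glycoprotein that cells assemble into the first fibres of a wound matrix. Its intensity was 2909.8 on the knockout array and 712 on the wildtype array, 4.09-fold apart. Tnc, the tenascin C gene of wound edges and remodelling dermis, had 5314 against 1549.8 (3.43-fold). The other tenascin, Tnxb, which encodes the tenascin X of collagen fibrils, was low on both arrays with 49.9 against 56.7. The tenascins therefore did not share the wide difference of Tnc. That of Tnxb was small (-0.18) and near the expression threshold, so its direction is not settled.

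The thrombospondins are adhesive glycoproteins that bind growth factors, proteases and cell receptors. Thbs2 had 4745 on the knockout array and 2085 on the wildtype array, a 2.28-fold difference with 1 possible place. Comp, the cartilage oligomeric member of the family, was below the threshold in both models (38.2 against 40.7). Thbs1 and Thbs3 were undecided and are described below.

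The CCN proteins are small modular signalling proteins of the matrix, and all 4 expressed members read higher in the knockout model. Of all expressed genes, 54.2% read higher, and of the 4 only Ccn4 differed by 2-fold or more. Ccn4 had 227 against 96.6, a 2.35-fold difference with a probability of 0.98. Its other possible reading, with a probability of 0.022, would place the knockout value at 22.7 and turn the direction. Ccn1 had 210.3 against 109.8 (1.92-fold) and Ccn2, the connective tissue growth factor gene, 201 against 110.2 (1.82-fold). Ccn5 differed least, with 90.9 against 76.4. A further probe set of Ccn2 lay below the threshold on both arrays, with 32.6 against 26.3.

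Other matricellular members went both ways and stayed under 2-fold. Postn, which encodes periostin, a fasciclin-domain protein of the dermis and of wounds, had 4056 against 3307 (1.23-fold higher). Its other reading, with a probability of 0.017, would place the wildtype value at 331 and widen the difference beyond 2-fold. Tgfbi, the other fasciclin-domain gene, had 423 against 822, a 1.94-fold lower reading that has a probability of 0.954. All other readings of Tgfbi were lower still in the knockout model. Ecm1, a secreted glycoprotein that is lost in lipoid proteinosis, read 1.60-fold lower, with 1929.6 against 3085 and 1 possible place. Matn2, the matrilin 2 gene, had 484 against 382.

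**Figure D2:**
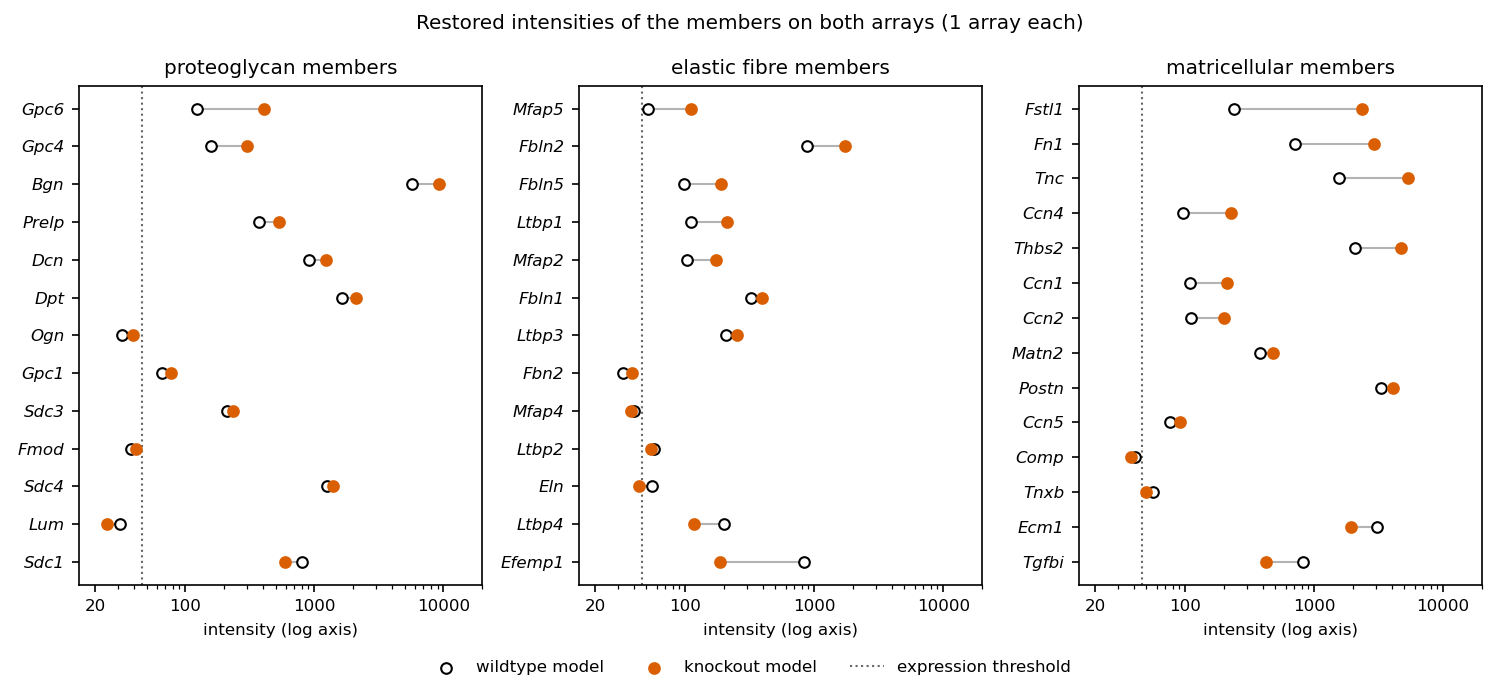
Intensities (log axis) of the 40 restored members in the knockout model (filled) and the wildtype model (open), 1 array each, ordered within each class by their difference, with a dotted line at the expression threshold of 46.4. The widest gaps are those of Fstl1, Efemp1, Fn1, Tnc and Gpc6, and most other pairs of points lie close together.

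Among the elastic fibre members, 1 was higher by 2-fold or more and 1 lower by 2-fold or more of 11 expressed, with a median of 0.31. With 11 members, a count of 1 is not far from the shares of all expressed genes (3.77% higher and 3.28% lower). Over the elastic fibre members with 1 possible place the median was -0.091, so the direction of this class is not settled. Efemp1, the fibulin 3 gene, had 187 on the knockout array and 835 on the wildtype array and so was 4.46-fold lower. Only 0.725% of expressed genes had a lower difference. The point of its wildtype value had another possible place, at 8348 with a probability of 0.021, which would make the gap wider and keep the direction, and at a minimum probability of 0.99 Efemp1 would be undecided. The other fibulins with a value read higher, each by less than 2-fold, where 54.2% of all expressed genes read higher. Fbln2 had 1729 against 876 (1.97-fold), Fbln5, which links cells to elastic fibres, 189 against 97.9 (1.93-fold), and Fbln1 396 against 321 (1.24-fold). Fibulin genes thus lay on both sides of 0, between -2.16 and 0.98.

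Elastin and several microfibril genes lay near or below the expression threshold. Eln had 43.9 on the knockout array and 55.6 on the wildtype array, with the knockout value under the threshold. Mfap5, the gene of a microfibril-associated glycoprotein, had 111 against 51.0, which is 2.18-fold, although the wildtype value lies just above the threshold. Mfap2, which encodes a related microfibril glycoprotein, had 173 against 104 (1.67-fold). Its other reading, with a probability of 0.036, is lower in the knockout model. Fbn2 (38.9 against 33.1) and Mfap4 (37.9 against 40.2) were below the threshold in both models.

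The latent TGF-beta binding proteins did not share a direction. Ltbp1, which holds latent TGF-beta in the matrix, had 209.5 against 110.5 (1.90-fold higher) and Ltbp3 249.8 against 208 (1.20-fold higher). Ltbp4, known for its part in elastic fibre assembly, had 117 against 199.9 (1.71-fold lower), with 1 possible place. Ltbp2 was nearly equal, with 53.8 against 57.3. The 4 genes had a median of 0.09.

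Of the 10 expressed members of the proteoglycan class, 9 read higher in the knockout model, but 1 was higher by 2-fold or more and 0 lower by as much, and the median was 0.40. Of all expressed genes, 54.2% read higher, 3.77% were higher by 2-fold or more and 3.28% lower by as much. Gpc6 encodes a glypican, a heparan sulfate proteoglycan held to the membrane by a lipid anchor. It had 406 on the knockout array and 122 on the wildtype array, 3.33-fold apart, with 1 possible place. Gpc4 had 302 against 159 (1.90-fold) and Gpc1 77.0 against 65.8 (1.17-fold). The other reading of Gpc4, with a probability of 0.021, would place the knockout value at 3021. Gpc6 was therefore the glypican that stood above the range of the fibroblast markers.

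The expressed small leucine-rich proteoglycans and the decorin-binding Dpt differed modestly. Bgn, the biglycan gene, had 9263 on the knockout array and 5694 on the wildtype array (1.63-fold, 1 possible place). Dcn, the decorin gene, had 1235 against 912 (1.36-fold), and Prelp, whose product binds collagens and heparan sulfate, 527 against 369.8 (1.43-fold). Dpt, which encodes the decorin-binding dermatopontin, had 2086 against 1633 (1.28-fold). The wildtype value of Dpt had another possible place, at 163 with a probability of 0.028, which would widen the difference. Dcn also had other possible places, and its reading had a probability of 0.981. These 4 genes lay below the median of the fibroblast markers, with differences from 0.35 to 0.70. Lum, which encodes lumican, Fmod, which encodes fibromodulin, and Ogn were below the threshold in both models, with 24.6 against 30.9, 41.5 against 37.8 and 39.4 against 32.4.

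Of the syndecans, Sdc3 and Sdc4 were nearly level, and Sdc2 was undecided. Sdc4 had 1384 against 1260.5 and Sdc3 233 against 210.0, both within 1.11-fold. Both had other possible places, and these readings had probabilities of 0.996 for Sdc4 and 0.994 for Sdc3. Sdc1, the main syndecan of keratinocytes, had 588 on the knockout array and 798 on the wildtype array (1.36-fold lower) on the probe set with the higher mean. Its further probe set gave 179.7 against 161, a difference in the other direction with 1 possible place. The direction of Sdc1 therefore depended on the probe set.

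In all, 6 members had 2 probe sets. Besides Sdc1 and Ccn2, Prelp had a further probe set near the threshold with 48.9 against 52.1, and that of Fmod was below it with 36.0 on both arrays. The further probe set of Bgn read 785 against 360.2 in its likeliest reading, with a probability of 0.945, and that of Gpc1 had a difference of 0.86 under readings that together reach a probability of 0.961.

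The undecided members can be read from their possible pairs of places. Sparc, the gene of the collagen-binding protein osteonectin, was higher by 2-fold or more in the knockout model under both of its readings. Its knockout value was 2206, and its wildtype value was 965 (2.29-fold, probability 0.926) or 96.5 (22.9-fold, probability 0.074). For Emilin1, Gpc3 and Thbs3 the level is undecided, since both values may move by 1 digit together, which leaves the difference the same. The likeliest difference was 0.66 for the elastic fibre glycoprotein gene Emilin1 with a summed probability of 0.968, 0.77 for Gpc3 with 0.982 and 0.84 for Thbs3 with 0.969. Readings lower in the knockout model had probabilities of 0.021 for Emilin1, 0.013 for Gpc3 and 0.024 for Thbs3.

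The direction of the other undecided members was less firm. Thbs1 had a wildtype value of 149.9 and a knockout value of 364 (2.43-fold higher, probability 0.893) or 36.4 (lower, probability 0.107). Sdc2, the syndecan of mesenchymal cells, had 608 in the wildtype model and either 1510.3 (probability 0.596) or 151 (probability 0.404) in the knockout model. Aspn, the asporin gene, had 50.2 in the wildtype model and 27.1 (probability 0.910) or 271 (probability 0.090) in the knockout model. The direction of Sdc2 cannot be read from these values.

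**Figure D3:**
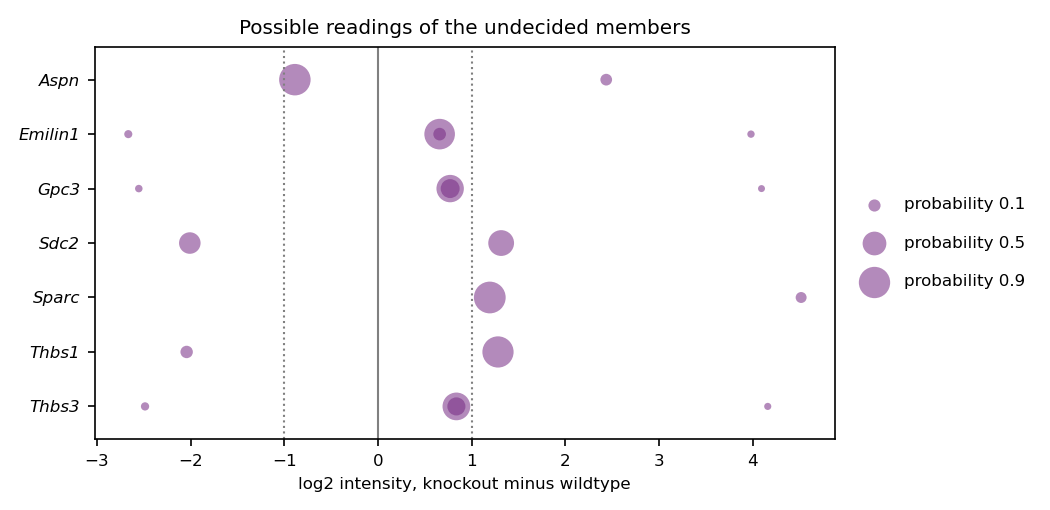
Each point is a possible reading of an undecided member on the axis of log2 difference, knockout minus wildtype, and its area grows with the probability of that reading. Where both values move together, points of Emilin1, Gpc3 and Thbs3 coincide. Both readings of Sparc lie beyond 2-fold on the higher side, whereas Sdc2 has readings of similar probability on either side of 0.

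Genes related to the members were taken from lists written by function. For all of these lists, the shares to set beside the counts are those of all expressed genes, 3.77% higher and 3.28% lower by 2-fold or more. Among 29 expressed genes for the synthesis and sulfation of proteoglycan chains, 3 were higher by 2-fold or more and 1 lower by as much. The median was 0.33 against 0.04 for all expressed genes. Sulf1, which removes sulfate groups from heparan sulfate outside the cell, had 411 on the knockout array and 93.2 on the wildtype array. The dermatan sulfotransferase gene Chst14 had 259 against 122 and the chondroitin sulfotransferase gene Chst11 2751 against 1298. Hs3st1, a heparan sulfotransferase gene, had 45.1 against 101, with the knockout value under the threshold.

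Of 10 other expressed proteoglycans, 2 were higher by 2-fold or more and 0 lower (median 0.10): Vcan, the versican gene, with 653 against 269, and Hspg2, the perlecan gene of basement membranes, with 419 against 192. Of 7 other elastic fibre and crosslinking genes, the lysyl oxidase genes Loxl1 (532 against 130.0) and Loxl3 (272 against 110.4) were higher by 2-fold or more and 0 were lower (median 0.53). Of 8 other matricellular genes, Mfge8 (1152 against 392) and Igfbp7 (3691 against 1615) were higher by 2-fold or more and 0 were lower (median 0.45).

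The TGF-beta ligands, receptors and feedback genes were split. Of 8 expressed, Tgfbr3, the betaglycan co-receptor that is itself a proteoglycan, was higher by 2-fold or more with 1450.1 against 579.6, and Eng, the endoglin co-receptor, was lower by 2-fold or more with 59.2 against 183. The inhibitory Smad7 read lower, under 2-fold, at -0.53. The median of 0.09 lay close to that of all expressed genes. Tgfb1 and Tgfbr2 were undecided.

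**Figure D4:**
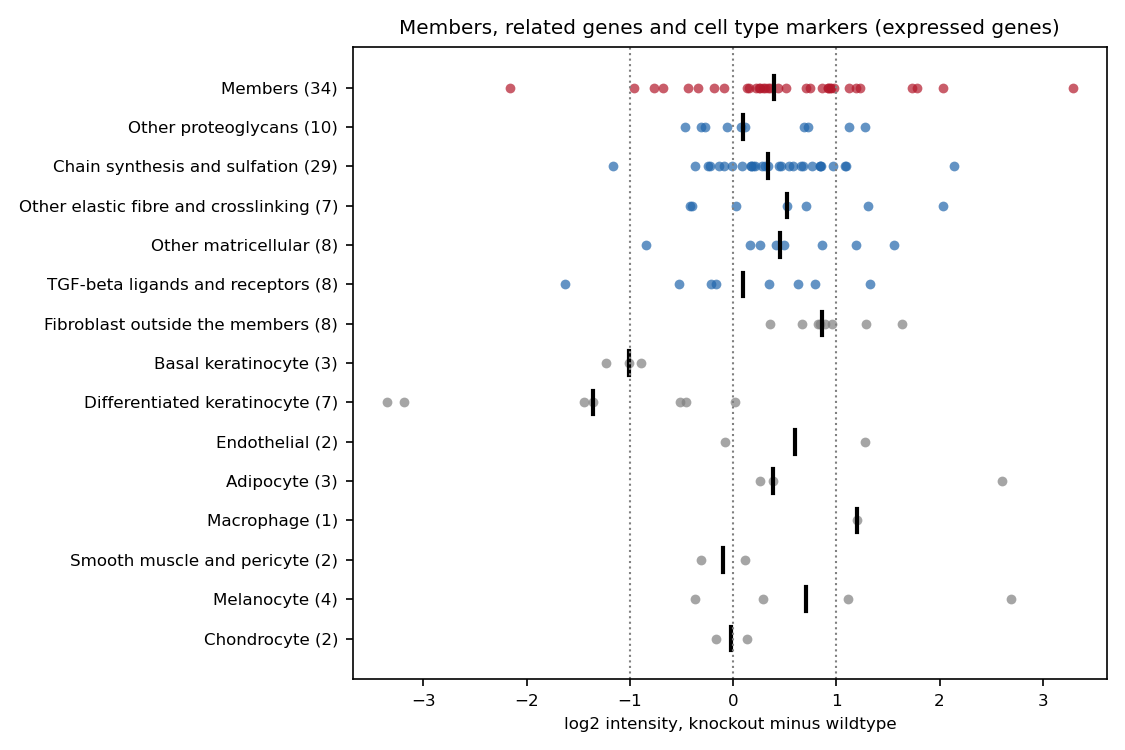
Log2 differences, knockout minus wildtype, of the expressed members, of related genes and of cell type markers (number of expressed genes in brackets), with a bar at each median and dotted lines at 0 and at 2-fold. The 8 fibroblast markers all lie above 0, the 3 basal keratinocyte markers all below it, and the members spread over both sides with a median of 0.40.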

How the data were processed

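Intensities of 33793 probe sets were deposited for 2 arrays, 1 per genotype. Labelling used an Affymetrix whole-transcript kit, per the labels' protocols. No source used here gives the summary of probes or any normalization between arrays. All 129 values that kept their decimal point were single-precision powers of 2, and each other value had at least 1 possible place between 18 and 20000. Pairs of places were weighted by 25 rounds of expectation maximisation over mean level and absolute difference. This restored 31790 probe sets (94.1%), with 48.6 expected to be misplaced. With their points removed, 95 of the 129 kept values were decided, and 95 of those returned to the true place. A strong difference is more often left undecided than a small one, so counts of wide differences are undercounts, and a difference near 0 is firm only where 1 place was possible. The column medians were 46.1 and 46.6, and no further normalization was applied.

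Where a gene had more than 1 restored probe set, that with the highest mean was used. A fold is given where both intensities reach the threshold. Every member is accounted for; of the other pathway lists, the genes at least 2-fold apart are named, and of the cell type lists, summed levels and chosen markers. The steps were tested on simulated data (Python 3.11.15, numpy 2.4.6, pandas 2.3.3). The members and lists were chosen with earlier results of these data known.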

Additional observations from a re-analysis of the deposited data

How the results depend on the processing

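Alternatives were the strictness of the decimal place, 2 normalizations, a pseudocount of 16, the filter, the choice of probe set and the fold counted. Of 280 member differences under them, 275 moved by less than 0.25 log2 and 5 by more, those of Sdc1 (3 settings), Prelp and Ccn2. The settings for the place and the filter select genes or probe sets and change no intensity. Under them a difference could move only if another probe set was taken, so much of this agreement was fixed in advance. Of the 5, 2 changed sign: Sdc1 went from -0.44 to 0.16 with a minimum probability of 0.99 and with 1 possible place only, which leave its further probe set. With a minimum probability of 0.99, and with 1 possible place only, 0 members were at least 2-fold lower, since Efemp1 has several places. With 1 possible place only, which left 17 expressed members, the median of all members was 0.70, that of elastic fibre members reversed to -0.091, and those of other elastic fibre genes and TGF-beta genes were 1.005 and 0.35. Keeping the undecided probe sets, at their likeliest places, the member median was 0.66, with 10 members at least 2-fold higher where 4.93% of genes were. That count was 6 with the pseudocount of 16, where Mfap5 fell under 2-fold, to 0.93. It was also 6 with a minimum probability of 0.99 and with 1 possible place only, which leave out Ccn4. The matricellular median was 0.60 without a filter and 0.59 as a mean over probe sets. Other matricellular genes had 0.16 without a filter, and other proteoglycans 0.40 with both values above the threshold. A fold of 1.5 counted 15 members higher and 4 lower, where 80.2% of all expressed genes lay within 1.5-fold. A fold of 3 counted 4 higher and 1 lower. These counts change with the fold by construction. The share of all expressed genes beyond 3-fold was not counted, and that beyond 1.5-fold was not split by direction. The counts at these folds are therefore not compared with all expressed genes. Other causes were not tested.

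No paired analysis was possible because there is 1 array for each genotype, and leaving out an array leaves no comparison. Intensities near the background, with 5th percentiles of 21.4 on both arrays, give compressed differences.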
